A study of Mus musculus with 22 samples.

Results

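Purinergic signalling genes were followed as 10 named genes of the count table, out of 29367 genes listed there. They were taken by gene symbol and comprise the ATP-gated channels P2rx4 and P2rx7, the nucleotide receptors P2ry1 and P2ry2, the adenosine receptors Adora1, Adora2a and Adora2b, and the ectonucleotidases Entpd1, Entpd2 and Nt5e. All 10 were found. The samples were mRNA on HA-tagged ribosomes of astrocytes from 2 regions of the mouse optic nerve. The optic nerve head (ONH) is the region where the axons of retinal ganglion cells leave the eye, and the optic nerve proper (ONP) is the myelinated nerve behind it. Tissue was taken 7 or 30 days after microbeads, which block the outflow of aqueous humor and raise intraocular pressure, had been injected into 1 eye. There were 4 replicates of each region at 7 days and 7 of each at 30 days, giving 22 libraries, and each replicate pooled 4 mice (2 males and 2 females). All animals of all groups were 3 to 4 months old, carried the Rpl22 HA/HA ribotag allele with Cre under the GFAP promoter of line 73.12 (ribotag strain B6J.129(Cg)-Rpl22tm1.1Psam/SjJ, genotype labelled WT), and had received microbeads, so no group was free of injury and uninjured samples were not analysed here. ONH and ONP were taken from the same mice, and equal replicate numbers at 30 days were read as the same pool. The 7 day columns carried numbers that could not be matched to the sample labels, so these libraries are named A to D within a group. Both regions shared 3 of those column numbers (libraries A, C and D of each), which were used as pairs in an added fit only.

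ATP leaves stressed, stretched or damaged cells and acts as a danger signal on P2X channels and on G protein coupled P2Y receptors. Ectonucleotidases on the cell surface then break ATP and ADP down to AMP and finally to adenosine, which acts on its own receptors, so that the enzymes decide how long the ATP signal lasts and how much adenosine follows it. Astrocytes both release ATP and respond to it with calcium waves, and in the optic nerve this pathway is known for its link to mechanical stretch and raised pressure.

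Libraries held 16292489 to 33307092 counts, and 3 counts, the smallest amount taken as detectable, equalled 0.0901 to 0.184 CPM, the unit of all levels here, which scales each library to the same total. This limit covers counting error only. At 7 days the sum of 10 astrocyte markers was 13949 to 28036 CPM (median 18584) in the ONH and 15594 to 21767 (median 20090) in the ONP. At 30 days it was 16370 to 27085 (median 19419) in the ONH and 15305 to 33885 (median 29020) in the ONP. Of the 10, 2 (S100b and Gjb6) were higher in the ONP at 30 than at 7 days (edgeR adjusted p-value under 0.05), beside 7.82% of all genes. In the ONH against the ONP at 30 days, 1 was higher and 4 were lower, beside 21.8% and 20%. None was at 0 throughout a group, which held for microglial and oligodendrocyte markers too and so does not check the label. Markers of other cell types were present too. The sum of 15 microglia and macrophage markers was 288 to 2565 CPM in the ONH and 2001 to 3363 in the ONP at 7 days, and 279 to 5041 in the ONH and 364 to 6365 in the ONP at 30 days. The sum of 8 endothelial markers was 128 to 197 CPM in the ONP at 7 days, above every ONP library at 30 days (14.7 to 120), and it was 35.9 to 387 in the ONH at 7 days and 29.1 to 125 at 30 days. The sum of 10 oligodendrocyte markers was 81328 to 109393 CPM in the ONP at 7 days, above the astrocyte sum of 15594 to 21767 there, and 25798 to 85186 in the ONP at 30 days. In the ONH it was 18804 to 36371 CPM at 7 days and 13440 to 40472 at 30 days. Of these 10 markers, 8 were lower in the ONP at 30 than at 7 days (edgeR adjusted p-value under 0.05), beside 9.21% of all genes tested. In the ONH against the ONP, 8 were lower at 30 days, beside 20% of all genes, and 10 at 7 days, beside 6.81%. The 6 markers of pigment cells and the 6 of photoreceptors were higher in the ONH than the ONP at 30 days, beside 21.8% of all genes. At 7 days 6 and 5 of them were higher, beside 6.34%. The part of these other cells in any change of the purinergic genes was tested only for the microglial and endothelial sums, and in such bulk samples fewer cells of a type and less RNA per cell cannot be told apart.

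Per length of transcript, Adora1 and Entpd2 were the most abundant of the purinergic genes in every group. As CPM per 1 kb of annotated exons, Adora1 reached 70.7 ± 8.03 in the ONP at 30 days (SD, n = 7) and 63.5 ± 3.19 at 7 days (SD, n = 4), and Entpd2 33.5 ± 8.97 and 35.5 ± 2.92. In the ONH the order was turned, with Entpd2 at 49.1 ± 12 (30 days) and 65.0 ± 15.8 (7 days) and Adora1 at 43.7 ± 7.05 and 42.8 ± 14.8. The libraries of these 2 genes overlapped in the ONH and did not overlap in the ONP. P2rx4 followed with 10.2 to 12 CPM per kb as group means, apart from the ONP at 30 days, where Adora2b (10.4 ± 3.20) and P2rx4 (10.3 ± 3.80) could not be ordered. In the other 3 groups Adora2b had means of 1.89 to 4.08 CPM per kb, and P2rx7, P2ry1, Entpd1 and Nt5e had 0.598 to 4.09 over all groups, and from P2rx7 downwards most neighbours overlapped in their libraries. P2ry2 and Adora2a were the lowest in the ONP, and Adora2a the lowest in every group (0.107 to 0.606). This order rests on the full exon length. With the median transcript length instead, P2rx4 moved to rank 1 in the ONH at 30 days and rank 2 in the other 3 groups (its median annotated transcript has 1030 bases, against 7025 bases of exons in all).

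**Figure D1:**
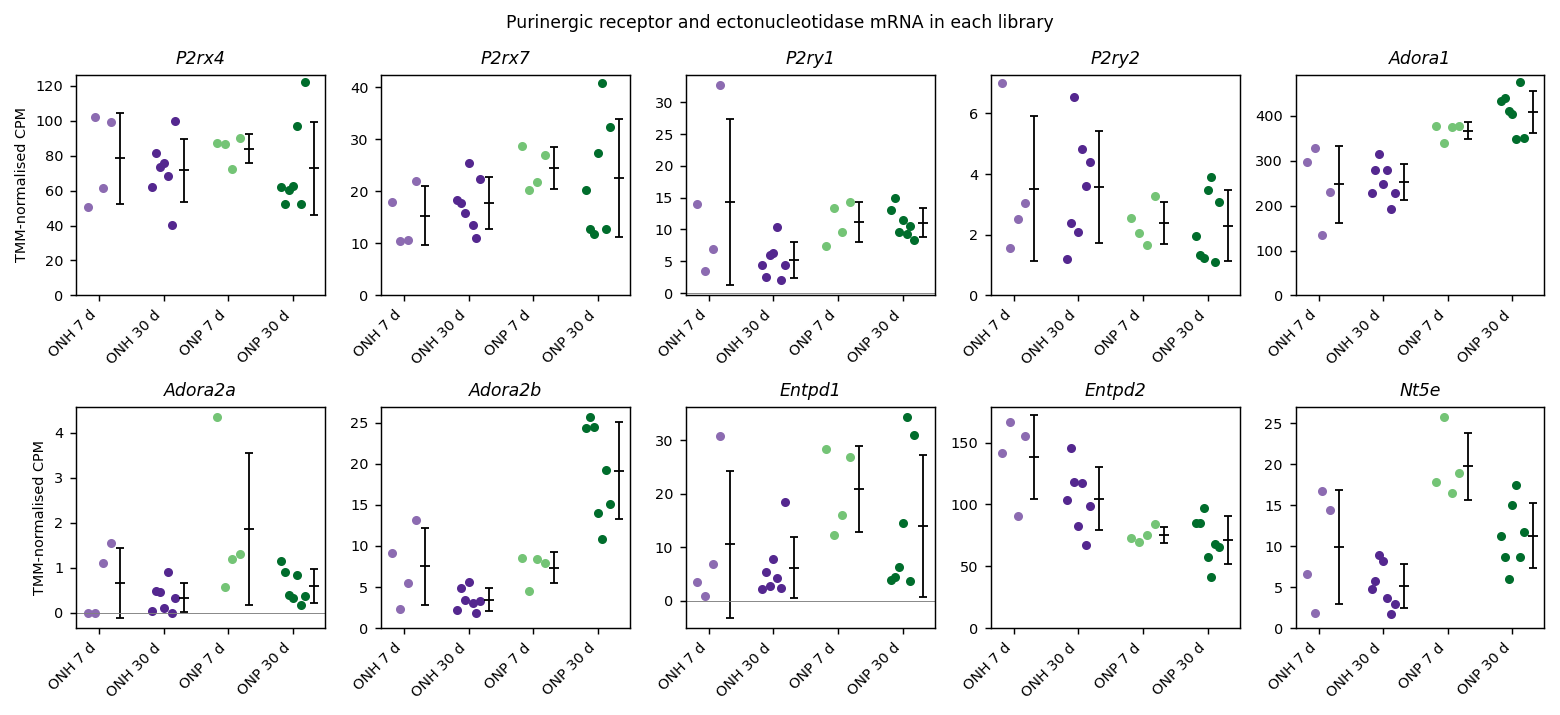
Normalised level of the 10 purinergic genes in each of the 22 libraries (vertical axes, TMM-normalised CPM on linear scales of their own; points, libraries; bars, mean and SD of each group). For Adora2b all 7 ONP libraries at 30 days (10.9 to 25.7 CPM) lie above the 4 ONP libraries at 7 days and the 7 ONH libraries at 30 days, while for most other genes the groups overlap.

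The comparisons ask how astrocyte transcripts changed between 7 and 30 days in each region, how the regions differed at each time, and whether the change over time differed between regions. The ONP showed 2 changes over time among the 10 purinergic genes, a rise of Adora2b and a fall of Nt5e (edgeR, adjusted p-value under 0.05). Among all 15491 genes tested there, 17% passed (7.82% higher and 9.21% lower at 30 days). In the ONH, 0 of the 9 tested purinergic genes passed, as did 0% of 15668 genes by edgeR, although 13.9% (2179 genes) had an unadjusted p-value under 0.05, among them P2ry1 and Adora2b. None of the 9 was free of overlap between its ONH groups, which 2.25% of all genes were. DESeq2 called 446 genes in the ONH and 0 of the purinergic genes. At 30 days, 5 of 9 differed between the regions (Adora2b, Adora1, P2ry1 and Nt5e lower and Entpd2 higher in the ONH) against a background of 41.8% of 15133 genes (21.8% higher and 20% lower). At 7 days, 1 of 10 differed (Entpd2, higher in the ONH), with a background of 13.2% (6.34% higher and 6.81% lower). The change over time differed between the regions for 1 of 10, Adora2b, where 0.543% of 16748 genes passed (0.149% with a greater log2FC in the ONP). Without the 3 libraries that had the highest microglial sum (ONP libraries 5 and 7 and ONH library 7 at 30 days), 5 of 10 passed in the ONP over time (Adora1, Adora2b, Entpd1, Nt5e and P2rx4), beside 24.3% of all genes, and 3 of 9 between the regions at 30 days (Adora1, Adora2b and P2ry1), beside 35.4%. These libraries were picked after seeing the data and all come from 30 days, so the calls added in the ONP may follow from the selection. The median log2FC of the tested purinergic genes was -0.39 for the ONH over time, -0.13 for the ONP over time, -0.65 for ONH vs ONP at 30 days, -0.31 at 7 days and 0.10 for the difference in change, and that of all genes tested was -0.02, -0.01, -0.01, 0.07 and 0.01. The shares of purinergic genes called over time and between regions were thus counts of few genes beside sizeable backgrounds, and nothing is read from them about the group as a whole. Within a group the replicates are separate pools of mice, while the regions share pools, which the fits without a replicate block do not take into account.

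**Figure D2:**
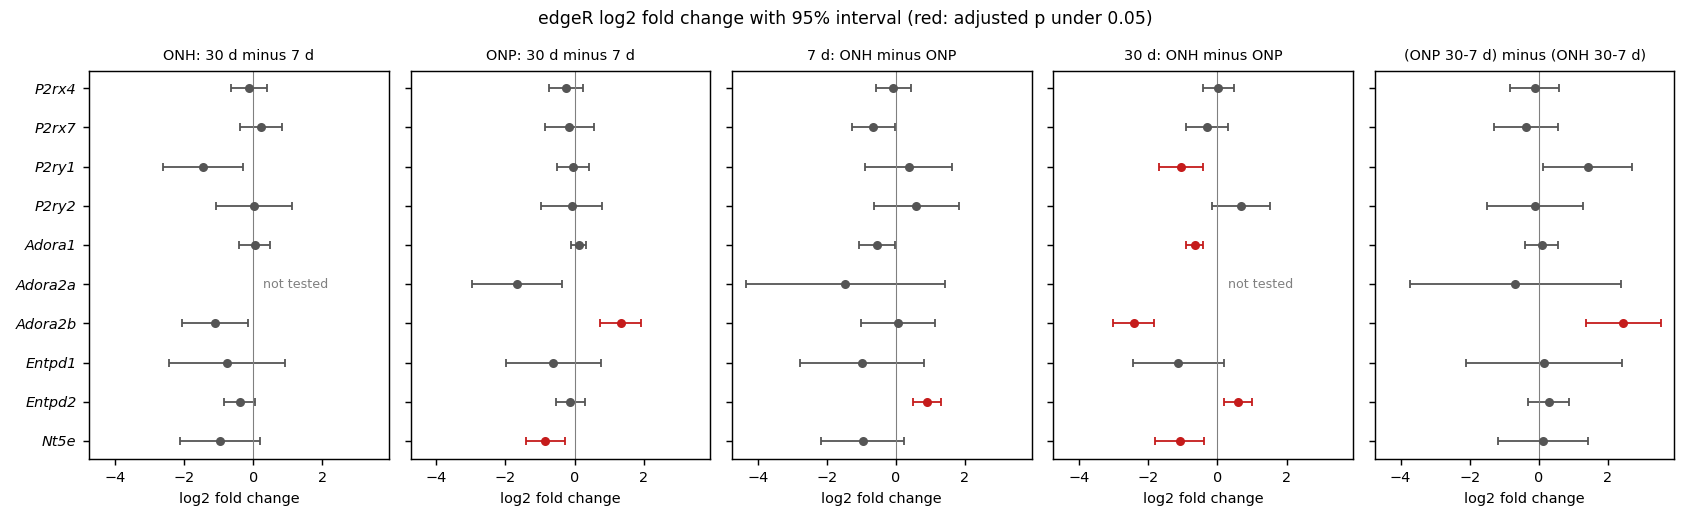
Log2 fold change of the 10 genes in the 5 comparisons (horizontal axes; points, edgeR estimates; bars, 95% intervals; red, adjusted p-value under 0.05; grey, not past it). Adora2b is the gene with red points in 3 panels, at 1.34 in the ONP over time, -2.42 for ONH vs ONP at 30 days and 2.45 for the difference in change, and Adora2a was not tested in 2 panels.

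Adora2b encodes a low-affinity adenosine receptor that couples to Gs and raises cAMP, and it is engaged mainly when adenosine is abundant. It lies on chr11:62248984-62266453 (GRCm38, plus strand, ENSMUSG00000018500) and overlaps no other annotated gene. In the ONP, Adora2b measured 8.56, 4.54, 8.45 and 7.94 CPM in libraries A to D at 7 days. The 7 libraries at 30 days spanned 10.9 to 25.7 CPM, with a median of 19.3. Every 30 day library was therefore above every 7 day library, which held for 12.1% of all genes tested in either direction. The rise was 2.53-fold (log2FC 1.34 ± 0.27 SE, 95% interval 0.75 to 1.93, edgeR adjusted p = 0.00739), and DESeq2 gave an adjusted p of 1.78e-05. In the ONH, Adora2b measured 9.12, 2.37, 5.47 and 13.2 CPM at 7 days, and the 30 day libraries spanned 1.81 to 5.6 CPM with a median of 3.35. The ONH groups overlapped, with 2 of the 4 libraries at 7 days above all at 30 days and library B among the lowest of either group. The log2FC in the ONH was -1.10 ± 0.44 (unadjusted p = 0.0253, edgeR adjusted p = 0.297), which did not pass.

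At 7 days the ONH and ONP did not differ detectably in Adora2b (log2FC 0.05 ± 0.48, 95% interval -1.02 to 1.12, edgeR adjusted p = 0.961). At 30 days it was 5.36-fold lower in the ONH (log2FC -2.42 ± 0.28, edgeR adjusted p = 1.07e-05). No library of the ONH reached the lowest of the ONP at 30 days, and the ONH was lower in all 7 pairs from the same mice. Groups did not overlap for 16.5% of all genes in that comparison. The difference in change over time between the regions was 2.45 ± 0.52 on the log2 scale (5.45-fold, 95% interval 1.36 to 3.53, edgeR adjusted p = 0.0328, DESeq2 adjusted p = 0.000739). The edgeR call on this difference was lost when ONH library 5 at 30 days, ONP library 1, 2, 3 or 6 at 30 days, ONH library A or D at 7 days, or any ONP library at 7 days was left out, with a log2 difference of 2.07 to 2.58 and adjusted p-values of 0.0534 to 0.0974 in those 11 fits. It was also lost with limma-voom (2.14, adjusted p = 0.121) and, just past the threshold, with the 30 day pools as a replicate block (2.47, edgeR adjusted p = 0.0511). With pools as a block at both days, on the shared numbers alone, it was 2.52 (edgeR adjusted p = 0.0458).

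Levels of Adora2b in the ONP are given beside the microglial, astrocyte and endothelial marker sums. The 3 ONP libraries with the highest microglial sums at 30 days (libraries 4, 5 and 7, with 1591, 4774 and 6365 CPM) had the 3 lowest Adora2b levels there, 14, 10.9 and 15.2 CPM, and the other 4 had 19.3 to 25.7. Libraries 4, 5 and 7 also had the lowest astrocyte sums of that group, 24025, 15305 and 20696 CPM, and the other 4 had 29020 to 33885. The astrocyte sum was not used as a covariate, so its part was not tested. With the log2 microglial sum as a covariate the rise over time was 1.0 (edgeR adjusted p = 0.00975), and without the 3 libraries of highest microglial sum in the series it was 1.55 (adjusted p = 0.00163). With the log2 endothelial sum as a covariate it was 0.35 (adjusted p = 0.571). Since the endothelial sums of the ONP at 7 and 30 days did not overlap, endothelial level and day cannot be told apart in the ONP. The regional difference at 30 days was -2.17 with the endothelial covariate (adjusted p = 7.27e-05) and -2.41 with the microglial covariate (adjusted p = 3.54e-06), and the difference in change was 2.50 (adjusted p = 0.0328) and 2.43 (adjusted p = 0.0295).

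Sequence upstream of 2 of the genes is shown, since Adora2b differed between regions at 30 days in the direction opposite to Entpd2. Both windows are the 250 bases before the start of the RefSeq transcript (GRCm38.p6), printed 5′ to 3′ on the plus strand. They end at the base before the annotated start of the gene, for Adora2b at chr11:62248734-62248983 and for Entpd2 at chr2:25395624-25395873. Capitals mark matches on either strand to GGGCGG (a GC box, bound by Sp family factors), to ACGTG or GCGTG (cores of the hypoxia response element), to TGACGTCA (the cAMP response element) and to TATAAA (the TATA box).
Adora2b: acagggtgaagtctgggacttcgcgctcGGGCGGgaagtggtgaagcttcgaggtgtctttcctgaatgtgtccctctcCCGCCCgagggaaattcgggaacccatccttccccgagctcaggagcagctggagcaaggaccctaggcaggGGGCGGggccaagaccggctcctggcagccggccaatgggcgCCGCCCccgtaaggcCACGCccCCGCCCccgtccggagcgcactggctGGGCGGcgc
Entpd2: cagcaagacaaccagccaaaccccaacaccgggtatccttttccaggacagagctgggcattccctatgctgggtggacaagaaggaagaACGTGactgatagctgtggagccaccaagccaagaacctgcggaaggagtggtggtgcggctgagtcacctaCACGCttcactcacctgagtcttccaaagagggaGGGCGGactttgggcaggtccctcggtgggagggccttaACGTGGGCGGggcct
The Adora2b window held 6 matches to GGGCGG, 1 to GCGTG and 0 to ACGTG, TGACGTCA and TATAAA. The Entpd2 window held 2 matches to GGGCGG, 2 to ACGTG and 1 to GCGTG, and its last GGGCGG shares a base with an ACGTG. Of 32851 RefSeq promoter windows of the same length, 32.7% held GGGCGG, 28.2% GCGTG, 16.6% ACGTG, 12.4% TATAAA and 1.55% TGACGTCA. The Adora2b window had 69.6% GC and 22 CpG sites, and the Entpd2 window 59.2% and 9, against medians of 52.4% and 6 over all windows. Windows were found for 9 of the 10 genes, all but Adora2a. A match in these letters is a description and no evidence of binding.

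Adora1 encodes the high-affinity adenosine receptor that couples to Gi and lowers cAMP, so it opposes Adora2a and Adora2b at that step. It measured 193 to 314 CPM (median 248) in the ONH and 349 to 475 (median 412) in the ONP at 30 days. No ONH library reached the ONP range, where 16.5% of all genes had no overlap in either direction, and the ONH was lower in all 7 pairs. The level was 1.57-fold lower in the ONH (log2FC -0.65 ± 0.12, edgeR adjusted p = 0.000383). At 7 days Adora1 measured 297, 328, 134 and 230 CPM in the ONH and 377, 340, 376 and 377 in the ONP. These groups did not overlap either, as was found for 21.7% of all genes, with library C the lowest of the ONH. The log2FC was -0.55 ± 0.24 and did not pass the threshold (edgeR adjusted p = 0.152). It passed when all 4 groups were fitted together (-0.57, adjusted p = 0.0303), and with the 3 shared column numbers as a block it was -0.81 (adjusted p = 0.126), lower in the ONH in 3 of 3. Over time Adora1 did not change detectably in the ONH (log2FC 0.04, 95% interval -0.41 to 0.49, edgeR adjusted p = 0.939) or in the ONP (0.12, -0.10 to 0.34, edgeR adjusted p = 0.438). Adora1 overlaps Mybph on the opposite strand, and whether strand was used in quantification was not given in the sources used here.

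Adora2a, the other Gs-coupled adenosine receptor, had few counts. It was 0 in 3 libraries (ONH library 6 at 30 days, and A and B at 7 days), at most 0.905 CPM in the ONH and 1.15 in the ONP at 30 days, and it was tested in 3 of the 5 comparisons. In the ONP it measured 4.34, 0.575, 1.2 and 1.3 CPM at 7 days and 0.158 to 1.15 (median 0.394) at 30 days, so the groups overlapped and library A stood highest. The log2FC was -1.67 ± 0.60 (edgeR adjusted p = 0.0766), and DESeq2 gave -1.65 (adjusted p = 0.0460). As shares of the 3 adenosine receptors per kb of exon, Adora2b made up 5.81% ± 1.21 in the ONP at 7 days and 12.6% ± 2.80 at 30 days, and 9.31% ± 5.39 and 4.08% ± 1.40 in the ONH (SD, n = 4 and 7). Adora1 held most of the remainder in every group, and the 7 ONP libraries at 30 days (8.89% to 15.7%) lay above the 4 at 7 days (4.01% to 6.55%).

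**Figure D3:**
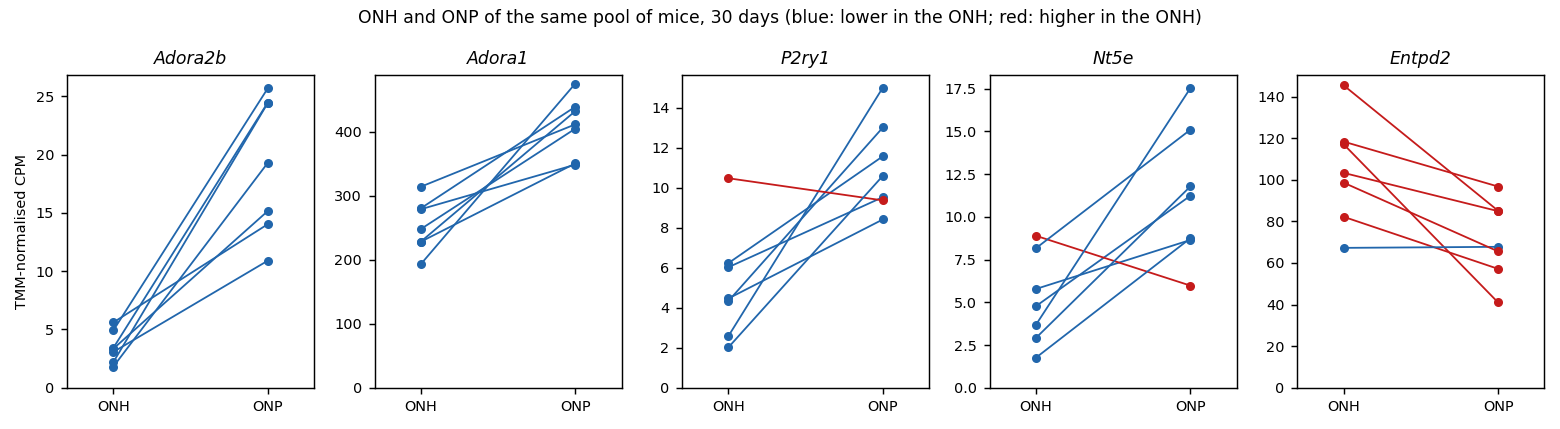
The 5 purinergic genes that differed between ONH and ONP at 30 days, with a line joining the ONH and ONP of the same pool of mice (vertical axes, TMM-normalised CPM from 0; 7 pairs per panel; blue, lower in the ONH; red, higher in the ONH). All 7 lines are blue for Adora2b and Adora1, and 6 of 7 share a direction for P2ry1, Nt5e and Entpd2.

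P2ry1 encodes a Gq-coupled ADP receptor that raises calcium in astrocytes. It measured 2.02 to 10.5 CPM (median 4.46) in the ONH and 8.41 to 15 (median 10.6) in the ONP at 30 days. The groups overlapped through ONH library 5, and the ONH was lower in the other 6 pairs. The level was 2.08-fold lower in the ONH (log2FC -1.06 ± 0.30, edgeR adjusted p = 0.0109), and this call held with each library left out, with either marker sum as a covariate and with the replicate as a block. At 7 days P2ry1 measured 14, 3.47, 6.95 and 32.8 CPM in the ONH and 7.46, 13.3, 9.57 and 14.3 in the ONP, with the ONH spread on both sides of the ONP (log2FC 0.37 ± 0.57, edgeR adjusted p = 0.711). In the ONH over time the log2FC was -1.45 ± 0.54 (unadjusted p = 0.0175, edgeR adjusted p = 0.270, DESeq2 adjusted p = 0.129), and with the endothelial sum as a covariate it was -0.33 (edgeR adjusted p = 0.840). In the ONP it was -0.04 ± 0.21 (95% interval -0.51 to 0.42). The difference in change was 1.41 ± 0.62 (edgeR adjusted p = 0.353), which did not pass. P2ry1 overlaps the antisense gene Gm37035, with the same limit on strand as for Adora1.

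P2ry2 encodes a receptor for ATP and UTP and was low, at 1.11 to 6.99 CPM over all 22 libraries. It passed in 0 of the 5 comparisons. The estimate farthest from 0 was that for ONH vs ONP at 30 days (log2FC 0.68 ± 0.40, 95% interval -0.16 to 1.52, edgeR adjusted p = 0.182), where 3 of 7 ONH libraries lay above the ONP range and the rest overlapped.

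P2rx4 and P2rx7 encode ATP-gated cation channels, the latter opened by high ATP and known for inflammasome activation. P2rx4 measured 40.5 to 99.7 CPM (median 73.3) in the ONH and 52.1 to 122 (median 61.9) in the ONP at 30 days, with 50.6, 102, 61.7 and 99.4 in the ONH and 87.4, 86.7, 72.1 and 90.1 in the ONP at 7 days. All 4 groups overlapped. Its log2FC lay between -0.25 and 0.03 in the 4 comparisons of groups, and the interval for the regions at 30 days was -0.43 to 0.48. P2rx7 measured 11.1 to 25.4 CPM (median 17.7) in the ONH and 11.8 to 40.9 (median 20.2) in the ONP at 30 days. At 7 days it measured 18, 10.5, 10.6 and 21.9 CPM in the ONH and 28.7, 20.3, 21.7 and 27.0 in the ONP, where 3 of 4 ONH libraries were below the ONP range. The log2FC between the regions at 7 days was -0.66 ± 0.28 (edgeR adjusted p = 0.151). It was -0.35 with the microglial sum as a covariate (adjusted p = 0.517). Neither channel passed the threshold in any of the 5 comparisons.

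Entpd2 encodes an ectonucleotidase of the cell surface that prefers ATP and so yields ADP. It lies on chr2:25395874-25401321 (GRCm38, plus strand) and overlaps Npdc1 on the same strand, so reads from the overlap cannot be told apart. It measured 142, 166, 90.3 and 155 CPM in the ONH and 72.7, 69.8, 75.2 and 84.2 in the ONP at 7 days. All 4 ONH libraries were above all 4 of the ONP, and 21.7% of all genes had no overlap in either direction in that comparison. The level was 1.86-fold higher in the ONH (log2FC 0.90 ± 0.19, edgeR adjusted p = 0.0111), and with the microglial sum as a covariate it was 0.82 (adjusted p = 0.0537). On the 3 shared column numbers it was 0.74 with the block (adjusted p = 0.131) and 0.77 without it (adjusted p = 0.0978), and higher in the ONH in 3 of 3. At 30 days Entpd2 measured 67.3 to 145 CPM (median 103) in the ONH and 41.0 to 96.8 (median 67.8) in the ONP, with 5 of the 7 ONH libraries above the ONP range. It was 1.51-fold higher in the ONH (log2FC 0.59 ± 0.19, edgeR adjusted p = 0.0205) and higher in 6 of 7 pairs. Without the 3 libraries of highest microglial sum the log2FC was 0.44 (adjusted p = 0.0883). Over time Entpd2 had a log2FC of -0.39 ± 0.20 in the ONH (edgeR adjusted p = 0.404) and -0.12 ± 0.19 in the ONP (edgeR adjusted p = 0.702). With the endothelial sum as a covariate the log2FC in the ONP was -0.96 and passed (adjusted p = 0.0178), but endothelial level and day cannot be told apart there. The difference in change was 0.28 (95% interval -0.32 to 0.88).

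Nt5e encodes the enzyme that turns AMP into adenosine, the last step of the surface cascade. It lies on chr9:88327197-88372092 (GRCm38, plus strand). In the ONP it measured 17.8, 25.8, 16.5 and 19.0 CPM at 7 days and 5.97 to 17.5 (median 11.2) at 30 days. The groups overlapped through library 5 at 30 days, and the other 6 were below all at 7 days. The fall was 1.79-fold (log2FC -0.84 ± 0.26, 95% interval -1.40 to -0.28, edgeR adjusted p = 0.0416). This call was fragile. It was lost in 9 of 11 fits with a library left out (all but ONP libraries 4 and 5 at 30 days), with log2FC from -0.95 to -0.68 and adjusted p-values from 0.0164 to 0.127 over the 11. Library-size scaling (-0.73, edgeR adjusted p = 0.0601) and no filter (-0.81, adjusted p = 0.0614) lost it too. So did the fit of all 4 groups (-0.81, adjusted p = 0.268) and the microglial sum as a covariate (-0.60, adjusted p = 0.0954). With the endothelial sum as a covariate the log2FC was 0.04. Endothelial level and day cannot be told apart in the ONP, so the fall cannot be separated from the lower endothelial sums at 30 days. In the ONH Nt5e measured 6.61, 1.86, 16.8 and 14.4 CPM at 7 days and 1.76 to 8.89 (median 4.78) at 30 days, with 2 of the 4 libraries at 7 days above all at 30 days (log2FC -0.95 ± 0.54, edgeR adjusted p = 0.436).

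Between the regions Nt5e was 2.13-fold lower in the ONH at 30 days (log2FC -1.09 ± 0.33, edgeR adjusted p = 0.0153) and lower in 6 of 7 pairs, pair 3 being the exception. Without the 3 libraries of highest microglial sum it was -0.85 (adjusted p = 0.0854). At 7 days the log2FC was -0.97 ± 0.54 (edgeR adjusted p = 0.267), with 3 of 4 ONH libraries below the lowest ONP library, and -1.38 with the endothelial sum as a covariate (adjusted p = 0.00926). Nt5e was related to the endothelial sum within groups. Over deviations from the group means of the 22 libraries on the log2 scale, Pearson's r was 0.718 (permutation p = 0.00308, adjusted over 20 relations 0.0205) and Spearman's rho 0.658 (permutation p = 0.00664, adjusted 0.0332), and r was 0.579 without the 2 libraries farthest from the median of the endothelial sum. The permutations took libraries as independent although ONH and ONP share pools, so these p-values may be too small.

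Entpd1 encodes the ectonucleotidase that takes ATP and ADP down to AMP. It measured 2.24 to 18.4 CPM (median 4.29) in the ONH and 3.58 to 34.3 (median 6.20) in the ONP at 30 days. At 7 days it measured 3.49, 0.791, 6.84 and 30.8 CPM in the ONH and 28.3, 12.2, 15.9 and 26.9 in the ONP. The groups overlapped in all comparisons, with ONH library 7 and ONP libraries 5 and 7 highest at 30 days and ONH library D highest at 7 days. Entpd1 passed in 0 of the 5 comparisons. At 30 days the log2FC between regions was -1.13 ± 0.62 (edgeR adjusted p = 0.155), and with the replicate as a block, which compares the ONH and ONP of the same mice, it was -0.93 (edgeR adjusted p = 0.0323), with the ONH lower in 6 of 7 pairs. Without ONH library 7 it was -1.75 (adjusted p = 0.0271). At 7 days it was -0.98 ± 0.82 (edgeR adjusted p = 0.461), and -2.46 without ONH library D (adjusted p = 0.0310).

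Entpd1 and P2rx7 tracked the microglia and macrophage markers from library to library. As for Nt5e, the permutation p-values here do not take the pools shared by the regions into account. Within groups, as above, the log2 level of Entpd1 and the log2 microglial sum had r = 0.840 (permutation p = 6e-05, adjusted over 20 relations 0.0012) and rho = 0.832 (permutation p = 0.00027, adjusted 0.0054), and r was 0.791 without the 2 farthest libraries. For P2rx7 the values were r = 0.764 (permutation p = 0.00088, adjusted 0.0088), rho = 0.787 (permutation p = 0.00067, adjusted 0.0067) and 0.749. Entpd1 was also related to the endothelial sum (r = 0.706, permutation p = 0.00508, adjusted 0.0254; rho = 0.651, permutation p = 0.0066, adjusted 0.0332), and r was 0.553 without the 2 farthest. For Adora2b r was 0.011 with the microglial sum (permutation p = 0.964) and 0.163 with the endothelial sum (permutation p = 0.627). Adora1 and Entpd2 had negative and P2ry2 positive relations to the microglial sum that passed by rho (-0.560, -0.582 and 0.577, each permutation p adjusted over the 20 relations 0.0437) and not by r. The same held for P2ry2 and Entpd2 with the endothelial sum (rho 0.592 and -0.557, both adjusted 0.0437). The libraries with the 3 highest microglial sums, ONP library 7, ONH library 7 and ONP library 5 at 30 days, were also those with the highest Entpd1 of their region and day. With all libraries the log2FC in the ONP over time was -0.61 ± 0.63 for Entpd1 (edgeR adjusted p = 0.537) and -0.25 for P2rx4 (adjusted p = 0.470). Without those 3 libraries it was -1.68 (adjusted p = 0.0175) and -0.54 (adjusted p = 0.00433). ONP libraries 5 and 7 held the highest Entpd1 and P2rx4 of the ONP at 30 days, and only 30 day libraries were left out. Their omission thus lowers the 30 day level by selection, and no fall is read from it.

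**Figure D4:**
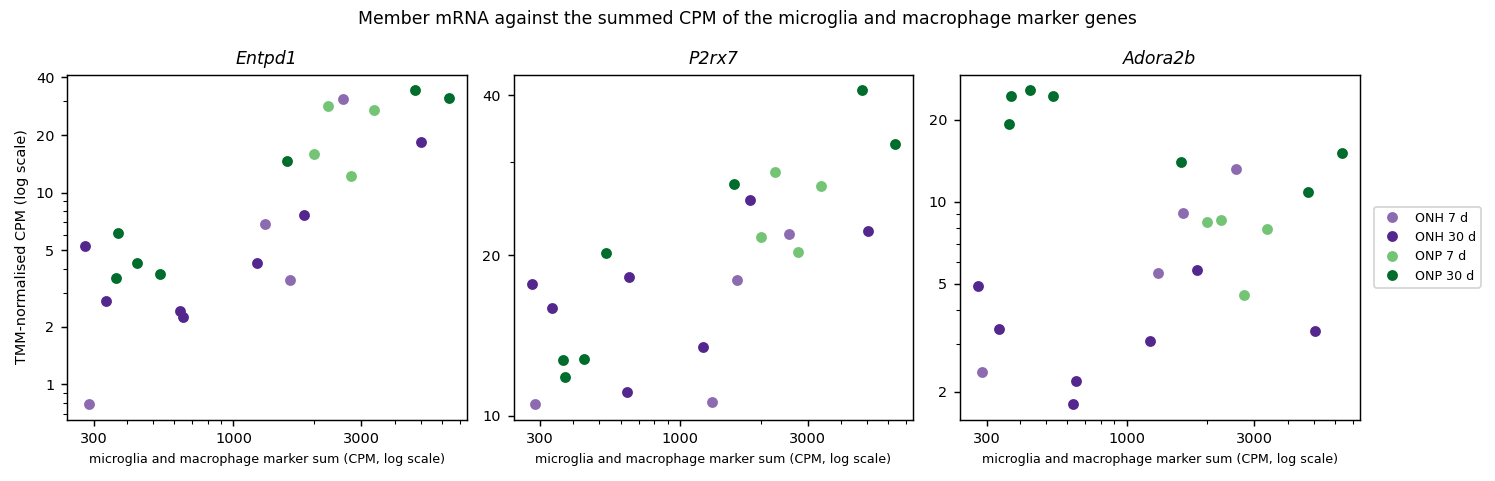
Levels of Entpd1, P2rx7 and Adora2b (vertical axes, TMM-normalised CPM, log scale) against the summed CPM of 15 microglia and macrophage marker genes (horizontal axes, log scale); each point is 1 of the 22 libraries, coloured by group. Entpd1 and P2rx7 climb with the marker sum, while the highest Adora2b levels (19.3 to 25.7 CPM) belong to 4 ONP libraries at 30 days with marker sums of 364 to 530. Those 4 also had the highest astrocyte marker sums of their group (29020 to 33885 CPM, not plotted).

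The wider purinergic pathway was described with a list of 47 genes that includes the 10 above. Of these, 44 were in the count table, and P2ry4, Entpd8 and Panx3 were not analysed here. Over time, 5 of 34 tested genes of the list passed in the ONP (3 higher and 2 lower), beside 17% of all genes, and 0 of 35 in the ONH, beside 0%. The 3 besides Adora2b and Nt5e were Ada, the deaminase that removes adenosine (log2FC -1.98 ± 0.40, edgeR adjusted p = 0.00694), Slc29a4, an equilibrative transporter that carries adenosine (1.53 ± 0.36, adjusted p = 0.0138), and Gjb6, a connexin of astrocytes (1.18 ± 0.32, adjusted p = 0.0265). Ada measured 3.64 to 16.8 CPM at 7 days and 1.07 to 4.51 at 30 days in the ONP, and the groups overlapped. Slc29a4 was low, with 0.320 to 1.27 CPM at 7 days and 1.99 to 3.02 at 30 days, without overlap, as for 12.1% of all genes. With the endothelial sum as a covariate none of the 3 passed, with log2FC of -1.04 for Ada (adjusted p = 0.415), 1.73 for Slc29a4 (adjusted p = 0.104) and 0.23 for Gjb6 (adjusted p = 0.820). Since endothelial level and day cannot be told apart in the ONP, these 3 changes cannot be separated from the lower endothelial sums at 30 days. Gjb6 was also lost with the microglial sum (0.77, adjusted p = 0.0885), in the fit of all 4 groups (1.21, adjusted p = 0.136) and without ONP library A, C or D at 7 days (adjusted p up to 0.0708).

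Between the regions at 30 days, 14 of 32 tested genes of the list passed, 2 higher and 12 lower in the ONH, beside the 41.8% of all genes. The ectonucleotidases Enpp1 (log2FC -2.40, edgeR adjusted p = 0.00146) and Enpp2, which makes lysophosphatidic acid (-1.81, adjusted p = 8.65e-05), were lower in the ONH, as was P2ry12, an ADP receptor that marks microglia (-2.08, adjusted p = 0.00222). Of the 15 microglia and macrophage markers 0 passed in this comparison, 5 with a positive and 10 with a negative log2FC (smallest edgeR adjusted p = 0.189). Of the genes listed under adenosine handling, the kinase Adk (-0.88, adjusted p = 4.36e-05), the transporters Slc29a2 (-0.92, adjusted p = 0.00895) and Slc29a3 (-1.42, adjusted p = 0.000764) and the peptidase Dpp4 (-1.04, adjusted p = 0.0257) were lower. Pnp, which breaks down inosine, was higher (0.76, adjusted p = 7.84e-05). Gjb6 was lower too (-1.89, adjusted p = 2.54e-05). The call on Dpp4 was lost with limma-voom (-0.85, adjusted p = 0.0914), in the fit of all 4 groups (-1.04, adjusted p = 0.199), without the 3 libraries (-1.05, adjusted p = 0.0741), without ONH library 3 (-0.93, adjusted p = 0.0525) and without ONP library 4 (-0.77, adjusted p = 0.0745). At 7 days 6 of 35 passed, beside 13.2% of all genes, Adk (-0.83, edgeR adjusted p = 0.00475), Slc29a3 (-1.76, adjusted p = 0.00521) and Enpp2 (-2.12, adjusted p = 0.00537) lower in the ONH, and Pnp (0.85, adjusted p = 0.00781), Entpd2 and Alpl, an alkaline phosphatase (2.53, adjusted p = 0.0402), higher. The call on Alpl was lost in 6 of 8 fits with a library left out, at log2FC of 1.66 without ONH library D and 2.47 to 2.62 without ONH library C or any of the 4 ONP libraries. On the 3 shared column numbers with the block, Adk was -0.82 (adjusted p = 0.0748) and Pnp 0.84 (adjusted p = 0.0849). For the difference in change over time, 1 of 38 passed, Adora2b, beside 0.543% of all genes. Adk measured 53.5 to 84.2 CPM in the ONH and 107 to 180 in the ONP at 30 days, with 61.4 to 80.2 and 116 to 142 at 7 days. Its regions did not overlap at either time, as was found for 16.5% of all genes at 30 days and 21.7% at 7 days.

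The genes most like each purinergic gene were taken as the 3 with the highest Pearson's r of log2 CPM over the 22 libraries, which share groups and depth, so that r is a description. Adora1 had the closest neighbours, Mmab (0.962), Abhd4 (0.959) and Tom1l2 (0.950). Those of Adora2b included Usp43 (0.933) and Slc38a3 (0.927), and Entpd1 was nearest to Vsir (0.926), Lpxn (0.924) and Slco2b1 (0.907). Entpd2 was nearest to Mmp19 (0.900), Pamr1 (0.896) and Sema3b (0.890), and P2ry1 to Mpzl2 (0.884), Slc22a6 (0.872) and Cd55 (0.853). For Nt5e they were Frmd4b (0.851), Cyfip2 (0.850) and Lpo (0.839), for P2rx7 Tifab (0.845), Ticam2 (0.844) and Inpp5d (0.836), and for P2rx4 Hexa (0.807), Cndp2 (0.806) and Man2c1 (0.801). The low genes Adora2a (Slc52a3, 0.792; Atp8b1, 0.791; Car4, 0.772) and P2ry2 (Cd36, 0.737; Nr1h4, 0.715; Trex1, 0.705) had the weakest likeness.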

How the data were processed

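Libraries from immunoprecipitated polysomal RNA had been made with the Smart-Seq HT kit and sequenced with 150-base paired reads. The deposited values were estimated counts per gene, which the authors obtained with Salmon 0.14.2, beside STAR 2.6.1d (versions from the submitters' processing notes), on mm10 with Ensembl release 94. A deposited table of variance-stabilised values was not used. Estimated counts were rounded to whole numbers. Genes were filtered with filterByExpr by group, normalised by TMM and tested with edgeR's quasi-likelihood F test (R 4.3.3, edgeR 4.0.16), and p-values were adjusted by Benjamini-Hochberg across every gene in the fit (threshold 0.05). Each comparison was fitted on its 2 groups and the region by day interaction on all 22 libraries. Fold changes at 30 vs 7 days are 30 minus 7, regional ones ONH minus ONP, and the difference in change is ONP minus ONH. CPM values use TMM library sizes, and correlations log2 CPM with a prior count of 2. Permutation p-values of the correlations are two-sided, from 100000 permutations of libraries within groups, which do not keep the ONH and ONP of a pool together.

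The 10 genes and the gene and marker lists were chosen with earlier results of these data known. The text names the 10 genes in every comparison, the genes of the wider list that passed, and the 3 genes most alike in pattern, of which 1 is not reported here. Groups came from the sample labels. The methods of the study state that ONH and ONP came from the same mice; equal numbers were taken here to mark the same pool. The correlation of deviations from the group means was 0.0769 to 0.471 over the 7 pairs at 30 days and 0.0124 to 0.146 over the 3 column numbers shared at 7 days (16748 genes). Of 29367 gene identifiers, 29322 matched the GENCODE annotation of GRCm38. Alternatives were DESeq2 1.42.0, limma-voom (limma 3.58.1), RLE size factors, library size only, no filter, a minimum of 10 counts per library, a joint fit of the 4 groups, the replicate block and each library left out. Microglial and endothelial covariates the omission of the 3 libraries with the highest microglial sum, and replicate blocks at 7 days and in the interaction were added after seeing the data. Scripts were tested on simulated data.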

Additional observations from a re-analysis of the deposited data

Results flagged for a closer look

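Among 40 groups of a gene's libraries examined for a value far from the rest, 3 held such a value, and chance gives about 1 in 20. In the ONP at 7 days, library B stood below the others in Adora1 (340 CPM, with the nearest at 376) and in Adora2b (4.54 CPM, with the nearest at 7.94). In the ONH at 30 days, library 7 stood above the others in Entpd1 (18.4 CPM, with the nearest at 7.70), and it had the second highest microglial marker sum of the series. The change of Adora2b over time differed between the regions by a test of the difference itself (2.45 on the log2 scale, edgeR adjusted p = 0.0328, and 0.0511 with the 30 day pools as a replicate block).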

How the results depend on the processing

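The differences of Adora2b, Adora1 and P2ry1 between regions at 30 days passed under all alternatives run, and the rise of Adora2b in the ONP under all but the endothelial covariate. For the ONP over time that covariate cannot be told apart from day, here and in the values below. The cause of the shifts listed here was not tested. With the replicate block 6 genes passed at 30 days (Entpd1 added, log2FC -0.93) and 6717 of all genes, and no other call of the 10 changed there. On the 3 shared column numbers at 7 days, 0 of the 10 and 879 of all genes passed with the replicate block, and 0 and 913 without it, on fewer samples. In the interaction the replicate block at 30 days gave 0 of the 10 and Entpd1 -0.078, and that at both days turned P2ry2 to 0.021, Adora1 to -0.17 and Entpd1 to -0.36.

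Of the purinergic genes, ONP over time gave 1 with library-size scaling, no filter, the 4-group fit or the microglial covariate (Adora2b), 1 with the endothelial covariate (Entpd2), and 5 without the 3 libraries. Regions gave 3 at 30 days without those libraries, beside 35.4% of all genes, and at 7 days 2 with the 4-group fit, 0 with the microglial and 3 with the endothelial covariate. Where no count of all genes is given below for a fit, it is not reported here. Nothing is read from such counts about the purinergic genes as a group. The interaction gave 0 with limma-voom. Of all genes, ONH over time gave 446 with DESeq2, 2 with no filter, 292 with the 4-group fit and 1 with the microglial covariate. ONP over time gave 1189 with the 4-group fit and 527 with the endothelial covariate. Regions at 7 days gave 3211 with DESeq2, 3785 with the 4-group fit and 1189 with the microglial covariate. The interaction gave 409 with DESeq2, 55 with limma-voom, 50 with no filter and 152 with the microglial covariate.

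With a library left out, purinergic genes called were 0 to 0 (ONH), 1 to 2 (ONP), 5 to 6 (30 days), 1 to 2 (7 days) and 0 to 1 (interaction). All genes called were 0 to 167, 1439 to 3214, 5671 to 6416, 1102 to 2379 and 22 to 318. The ONH gave 167 without library C at 7 days, the ONP 1439 without library D at 7 days, and regions at 7 days 1147, 1173 and 1102 without ONP library B, C or D.

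Signs of uncalled log2FC turned as follows. In the ONH, Entpd1 was 0.34 with limma-voom, P2ry2 -0.029 with library-size scaling and -0.038 without the 3 libraries, and with the endothelial covariate Adora1 was -0.078, Entpd1 1.49 and Nt5e 0.34. In the ONP, P2ry1 was 0.014 with limma-voom, 0.074 with library-size scaling and 0.10 without the 3 libraries, P2ry2 0.031 and Entpd2 0.0019 with library-size scaling, and Entpd2 0.057 without the 3 libraries. There the microglial covariate gave P2rx4 0.0051, P2rx7 0.19 and P2ry2 0.30, and the endothelial covariate P2rx4 0.44, P2rx7 1.05, P2ry2 1.12, Adora1 -0.16, Entpd1 1.28 and Nt5e (called without it) 0.040. At 30 days P2rx4 was -0.012 with no filter and -0.12 with the endothelial covariate, and P2rx7 0.0080 without the 3 libraries. At 7 days P2ry1 was -0.044 and Adora2b -0.21 with limma-voom, Adora2b -0.10 with the endothelial covariate and P2rx4 0.029 with library-size scaling. In the interaction, limma-voom gave Entpd1 -1.74 and Nt5e -0.59, library-size scaling P2rx4 0.018 and P2ry2 0.059, the microglial covariate Adora1 -0.020 and Entpd1 -0.055, the endothelial covariate P2ry2 0.25, Adora1 -0.073 and Entpd1 -0.46, and omission of the 3 libraries Entpd1 -0.35 and Nt5e -0.14.

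With a library left out, ranges that crossed 0 were, in the ONH, P2rx4 -0.28 to 0.020, P2ry2 -0.23 to 0.60, Adora1 -0.15 to 0.20 and Entpd1 -1.36 to 0.71. In the ONP they were P2ry1 -0.16 to 0.12, P2ry2 -0.23 to 0.13 and Entpd2 -0.21 to 0.012, at 30 days P2rx4 -0.10 to 0.19, and at 7 days P2rx4 -0.24 to 0.071, P2ry1 -0.44 to 0.69 and Adora2b -0.37 to 0.34. In the interaction they were P2rx4 -0.27 to 0.066, P2ry2 -0.65 to 0.14, Adora1 -0.080 to 0.27, Adora2a -1.47 to 0.21, Entpd1 -1.32 to 0.72 and Nt5e -0.30 to 0.47.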
